A study of Danio rerio with 4 samples.

Results

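Translation initiation and elongation factors were examined in venous and lymphatic endothelial cells of tie1 mutant zebrafish embryos. The genes were chosen by symbol alone, as every row whose name starts with eif or eef followed by a digit, and 83 of the 29027 listed rows met this rule. The study set 2 libraries of homozygous tie1 mutants (tie1 Homo) against 2 libraries of their wild-type and heterozygous siblings (tie1 WT/Het), all at 47 hours post fertilization. Every embryo carried the Tg(kdrl:EGFP) and Tg(lyve1:DsRed) reporters, and cells positive for both were sorted from dissociated trunks and tails. The mutants were embryos that had blood flow, and the sibling libraries mix wild-type with heterozygous animals. The tie1 allele and the number of embryos per library were not given in the sources used here. Nothing in the labels says that the replicates came from separate clutches, so the p-values cover no spread beyond these libraries. In the main fit they rest on the spread typical of a gene's level, not on the gene's own replicates.

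Protein synthesis starts when initiation factors load the initiator tRNA and the messenger RNA on the small ribosomal subunit. eIF2 brings the initiator tRNA, eIF3 and the cap-binding eIF4 factors bring the messenger, and eIF1, eIF1A and eIF5 act in the choice of the start codon. The elongation factors eEF1A and eEF2 then deliver each aminoacyl-tRNA and move the ribosome along. Both phases are controlled in yeast and mammals by kinases and by 4E-binding proteins, which lower the output of ribosomes under stress or without growth signals.

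Each library was given as TPM (transcripts per 1000000), a unit that is scaled by transcript length and library total and so permits levels of different genes to be set side by side. Sensory receptor and lens gamma crystallin genes, 322 in all and presumed silent in the endothelium, served to set a background limit, the value in each library that 95% of them did not exceed. The limit was 13.5 and 18.6 TPM in tie1 Homo replicates 1 and 2, and 3.93 and 6.37 TPM in tie1 WT/Het replicates 1 and 2. The listed rows summed to 602394 and 481065 TPM in the tie1 Homo libraries, against 813042 and 736606 TPM in the tie1 WT/Het libraries. The targeted gene tie1, an endothelial receptor tyrosine kinase, had 16.7 and 10.2 TPM in tie1 Homo, against 61.0 and 31.0 TPM in tie1 WT/Het (log2 fold change -1.66, SE 0.78, limma adjusted p = 0.0605). Its groups did not overlap, and the exact permutation test, two-sided, gave p = 0.33, below which no comparison of this size can go. Of 18 endothelial markers, 13 and 11 were above the limit in the tie1 Homo libraries and 17 in each tie1 WT/Het library. Their summed level was 2582 and 763 TPM in tie1 Homo, against 7616 and 5486 TPM in tie1 WT/Het. Of 11 venous and lymphatic markers, 8 and 6 were above the limit in tie1 Homo, against 11 and 10 in tie1 WT/Het.

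The translation factor genes were lower in both mutant libraries taken as a sum, and most of the abundant ones were lower one by one. Their summed level was 4823 and 1986 TPM in tie1 Homo, against 10122 and 8610 TPM in tie1 WT/Het. The groups did not overlap, but the 2 mutant libraries lay further apart from each other than the 2 sibling libraries did. The log2 ratio of the group means was -1.46, and -2.24 without tie1 Homo replicate 1. The median of the 83 genes was 25.4 and 15.1 TPM in tie1 Homo, against 58.7 and 48.5 TPM in tie1 WT/Het. In bulk samples, fewer cells of a type and less RNA per cell cannot be told apart. EIF2AK4 and EIF4G1_(2_of_2) were listed at 0 in all 4 libraries and the other 81 genes were tested.

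In the limma fit across 28301 genes, 20 of the 81 translation factor genes were called lower in tie1 Homo and 8 were called higher, at an adjusted p under 0.05. Over all genes tested, 4.43% were called lower and 44.6% higher. Fold change followed level across the whole data set, so a second background is needed: of the 1788 genes with a mean of at least 50 TPM, 33.0% were called lower and 0.168% higher. Of the 37 translation factor genes at that level, 16 were called lower and 0 higher. The mean was taken over the 4 libraries, so a gene could reach it through high tie1 WT/Het values alone. The gene eif3i did so, with a mean of 16.4 TPM in tie1 Homo and 120 TPM in tie1 WT/Het. This cut favours lower values in the 37 genes and in the 1788 genes alike. Without adjustment, 20 of these 37 had a p under 0.05, all lower, as had 44.6% of all 1788 genes at that level. Their median log2 fold change was -1.87, against -1.67 for all genes at that level and 1.17 for all genes tested. The calls depended on how the libraries were scaled: after median-of-ratios rescaling, quantile normalization or background subtraction 0 translation factor genes passed the threshold in either direction. At an unadjusted p under 0.05, median-of-ratios rescaling had 43 translation factor genes lower and 3 higher, against 14.5% and 4.31% of all genes, and the share lower among genes with a mean of at least 50 TPM was 57.7%. Quantile normalization had 7 lower and 1 higher at that p, against 6.46% and 4.72% of all genes, with 9.004% of the abundant genes lower. Background subtraction had 20 lower and 0 higher of 72 tested, against 19.0% and 1.98% of all genes, with 23.7% of the abundant genes lower. Calls and fold changes also depended on single libraries. The median log2 fold change of the 37 abundant translation factor genes was -2.36 without tie1 Homo replicate 1 and -1.22 without tie1 Homo replicate 2. For all genes with a mean of at least 50 TPM these medians were -2.34 and -0.87. Without tie1 WT/Het replicate 1 the medians were -1.63 for the 37 genes and -1.55 for all genes at that level. Without tie1 WT/Het replicate 2 they were -2.07 and -1.78.

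Over the alternative fits, between 52 and 72 translation factor genes had a negative log2 fold change. The number tested was 72 after background subtraction, 79 with a filter at a mean of 5 TPM and 81 otherwise. Over the same fits the share with a negative log2 fold change ran from 15.1% to 66.8% of all genes. Among genes with a mean of at least 50 TPM it ran from 69.2% to 96.8%. Counted without a variance model, 36 translation factor genes had groups that did not overlap and means at least 1 log2 unit lower in tie1 Homo, where 9.47% of all genes and 70.4% of genes with a mean of at least 50 TPM did so. A further 10 were higher by the same rule, against 57.0% of all genes. Of the 37 abundant translation factor genes 27 met the rule for lower values and 0 the rule for higher values, which 3.75% of all abundant genes met. After median-of-ratios rescaling the rule held for 59 lower and 0 higher translation factor genes, against 21.0% and 1.98% of all genes. After quantile normalization it held for 23 lower and 4 higher (8.81% and 7.51% of all genes), and after background subtraction for 53 lower and 1 higher (39.3% and 12.2% of all genes). Among all genes with a mean of at least 50 TPM, the rule for lower values held for 92.2%, 26.1% and 74.9% in these 3 fits.

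**Figure D1:**
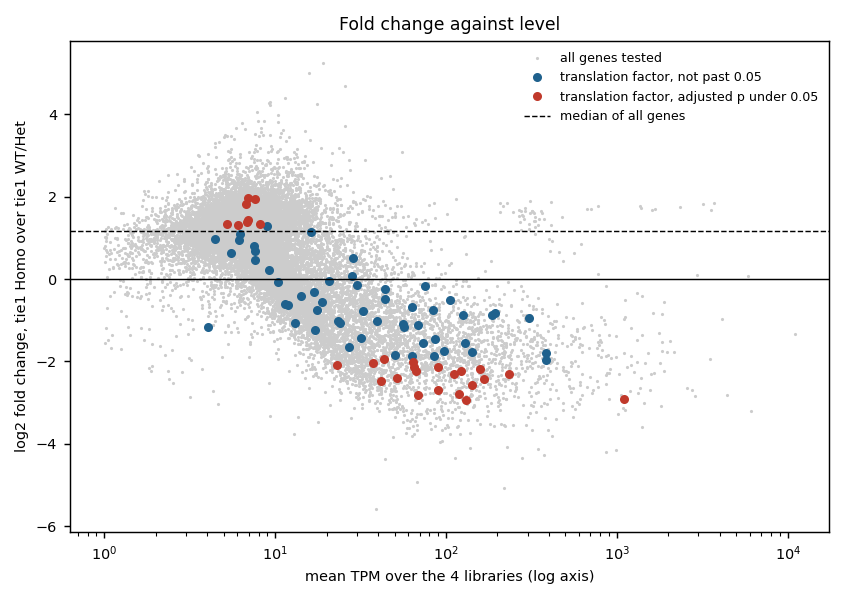
Log2 fold change of tie1 Homo over tie1 WT/Het plotted against the mean TPM over the 4 libraries (log axis), with grey points for all 28301 genes tested, red points for translation factor genes past an adjusted p of 0.05 and blue points for the others. The 8 red points above 0 sit at low mean TPM beside the dashed median of all genes at 1.17, and the 20 red points below 0 sit at higher mean TPM.

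None of the 8 translation factor genes called higher exceeded the background limit of any library. Their largest value in a mutant library was 17.4 TPM, and their log2 fold changes lay between 1.32 and 1.97. Each of the 20 genes called lower exceeded the limit in tie1 WT/Het replicates 1 and 2, and 9 of them also exceeded it in both tie1 Homo libraries. A total of 64 translation factor genes exceeded the limit in both tie1 WT/Het libraries. Of these, 26 exceeded it in both mutant libraries, 23 in tie1 Homo replicate 1 alone, 4 in replicate 2 alone and 11 in neither. Over all listed rows, 17.3% and 10.9% exceeded the limit in tie1 Homo, against 34.4% and 31.5% in tie1 WT/Het. Among the genes called lower, eif4ebp3l, eif3ea, eif4g2b, eif2b4, eef1db, eif2b3, eef2b and eif4a1a overlap another gene in the RefSeq annotation, so reads of the neighbour may be counted with them.

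**Figure D2:**
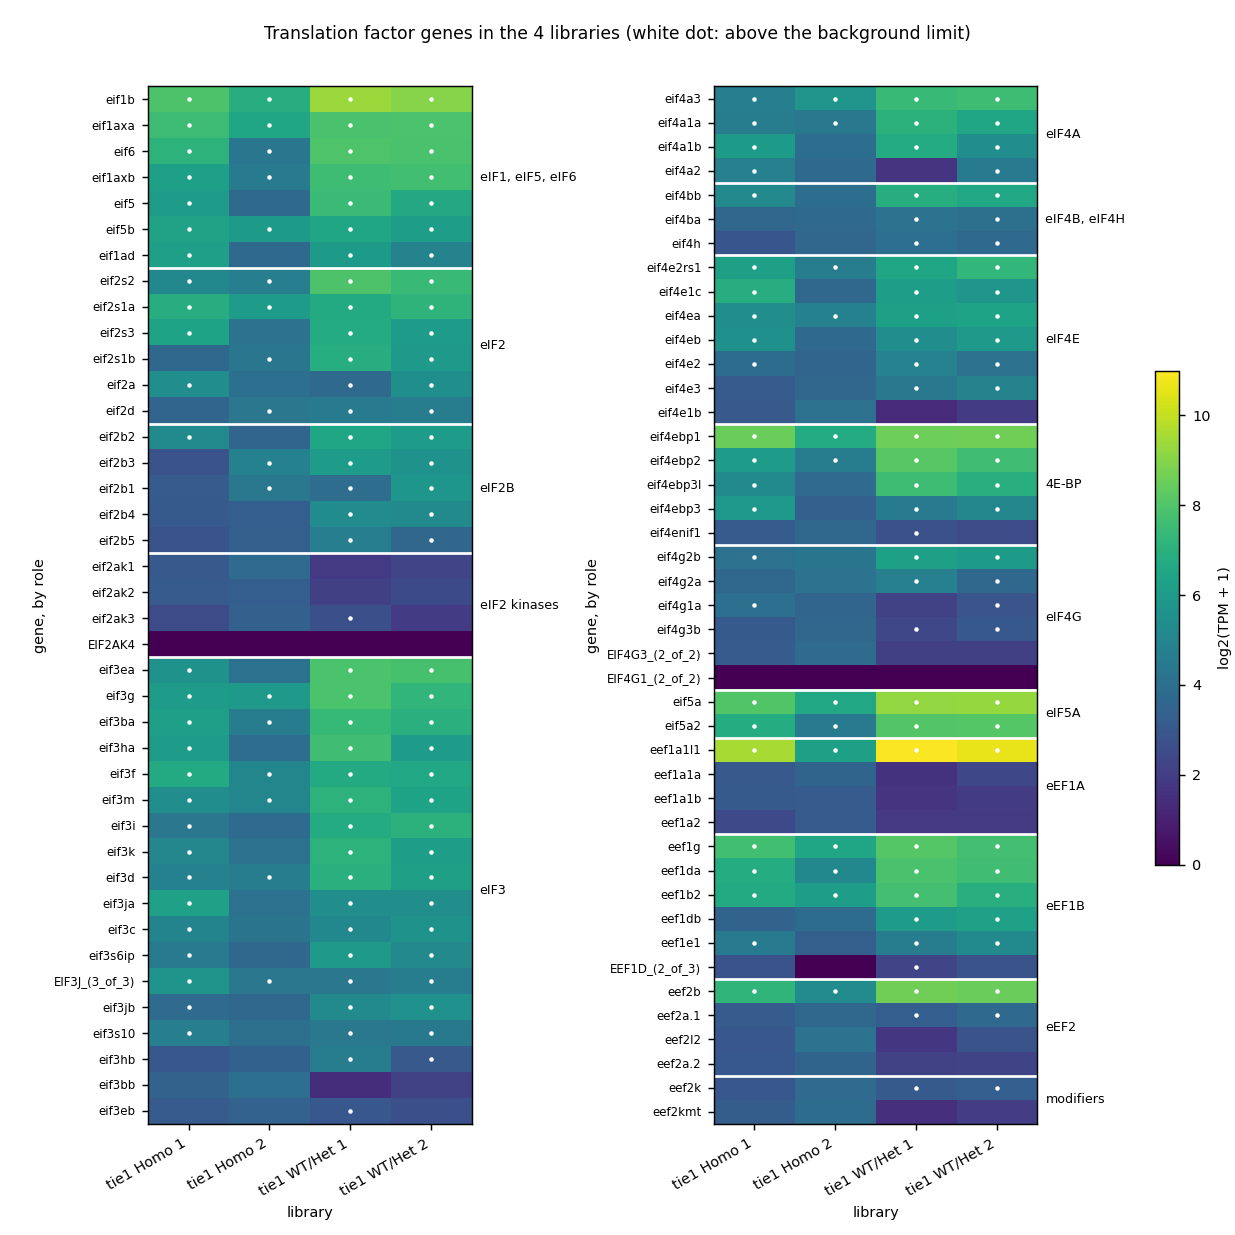
Level of the 83 translation factor genes as log2(TPM + 1) in each library, grouped by role and ordered by mean TPM within a role, with a white dot where the value was above the background limit of that library. The dots number 51 and 30 in the tie1 Homo columns, against 68 and 66 in the tie1 WT/Het columns. Over all listed rows, 17.3% and 10.9% were above the limit in tie1 Homo, against 34.4% and 31.5% in tie1 WT/Het.

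Factors that act at the start codon and at subunit joining were among the most abundant, and 3 of their 7 genes fell. For comparison, 4.43% of all genes and 33.0% of genes with a mean of at least 50 TPM were called lower. The gene eif1b, which encodes an eIF1 protein of start-codon selection, had 241 and 115 TPM in tie1 Homo, against 659 and 516 TPM in tie1 WT/Het. All mutant values lay below all sibling values, and the gene was not called (limma adjusted p = 0.0941, log2 fold change -1.80, SE 0.95). eIF1A, which binds the decoding site of the small subunit, is encoded by the paralogs eif1axa and eif1axb, of which only eif1axb was called lower. The difference between these paralogs was not tested. The paralog eif1axb fell, with 73.9 and 23.1 TPM in tie1 Homo against 192 and 204 TPM in tie1 WT/Het (log2 fold change -2.23, SE 0.93, limma adjusted p = 0.0387). For eif1axa the values were 184 and 86.9 TPM in tie1 Homo, against 229 and 239 TPM in tie1 WT/Het (log2 fold change -0.88, SE 0.95, limma adjusted p = 0.419), and the sign turned after quantile normalization. The GTPase-activating factor eif5 fell (65.6 and 12.8 TPM in tie1 Homo, 180 and 98.1 TPM in tie1 WT/Het), as did eif6, which keeps the large subunit from joining too early (137 and 19.1 TPM in tie1 Homo, 248 and 232 TPM in tie1 WT/Het). Their limma adjusted p-values were 0.0395 and 0.0430. In tie1 Homo replicate 2 eif5 was under the limit and eif6 just above it. The subunit-joining GTPase eif5b was nearly level, with 80.3 and 62.4 TPM in tie1 Homo and 88.3 and 70.9 TPM in tie1 WT/Het, and its groups overlapped.

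Among the subunits of eIF2, the carrier of the initiator tRNA, the beta subunit gene fell most. The gene eif2s2, encoding the beta subunit, had 33.8 and 24.7 TPM in tie1 Homo, against 242 and 176 TPM in tie1 WT/Het (log2 fold change -2.79, SE 0.92, limma adjusted p = 0.0178). Both mutant values were above the limit and far below both sibling values. The alpha subunit, the one that stress kinases phosphorylate, has the paralogs eif2s1a and eif2s1b. The paralog eif2s1b fell, with 11.7 and 18.95 TPM in tie1 Homo against 114 and 61.4 TPM in tie1 WT/Het (log2 fold change -2.41, SE 0.83, limma adjusted p = 0.0211), and its value in tie1 Homo replicate 1 was under the limit. The paralog eif2s1a had 114 and 63.7 TPM in tie1 Homo and 105 and 139.9 TPM in tie1 WT/Het, so that its groups overlapped (log2 fold change -0.50, SE 0.93, limma adjusted p = 0.646). The sign of eif2s1a turned after quantile normalization and after rescaling of the listed rows. The gamma subunit gene eif2s3, which binds GTP and the tRNA, had 83.5 and 17.1 TPM in tie1 Homo and 109 and 63.8 TPM in tie1 WT/Het, again with overlap.

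The make-up of eIF2 within a library is unaffected by a common scale factor, though not by background subtraction. The beta subunit supplied 13.9% and 19.9% of the summed eIF2 TPM in tie1 Homo, against 42.4% and 39.95% in tie1 WT/Het. The alpha paralogs together supplied 51.8% and 66.4% in tie1 Homo, against 38.4% and 45.6% in tie1 WT/Het. The gamma share was 34.3% and 13.7% in tie1 Homo and 19.1% and 14.5% in tie1 WT/Het, so that it overlapped. After the median of the unexpressed genes was subtracted from each library, the beta share was 12.1% and 17.0% in tie1 Homo, against 42.7% and 40.5% in tie1 WT/Het. These shares were chosen after the values were seen, and an exact permutation test cannot go below p = 0.33 here. Of 2514 gene pairs with symbols differing only in a final a or b, 49.0% had log2 ratios without overlap between groups. Separation of ratios within libraries was thus common, and no background was computed for subunit shares. The separate initiator tRNA factor eif2a ranged over 40.7 and 15.2 TPM in tie1 Homo and 12.8 and 43.5 TPM in tie1 WT/Het, with no separation (log2 fold change 0.07, SE 0.78, limma adjusted p = 0.940). The sign for eif2a turned after median-of-ratios rescaling, after background subtraction, and without tie1 Homo replicate 1 or tie1 WT/Het replicate 1.

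eIF2B reloads eIF2 with GTP, and 2 of its 5 subunit genes fell, where 4.43% of all genes were called lower. Among genes with a mean of at least 50 TPM that share was 33.0%, but of the 5 genes only eif2b2 reached that mean. The called genes eif2b4 and eif2b3 had means of 22.9 and 37.2 TPM over all libraries. The gene eif2b4 had 7.57 and 8.72 TPM in tie1 Homo, both under the limit, against 38.7 and 36.5 TPM in tie1 WT/Het (log2 fold change -2.08, SE 0.73, limma adjusted p = 0.0218). The gene eif2b3 had 6.07 and 27.4 TPM in tie1 Homo, against 66.1 and 49.0 TPM in tie1 WT/Het (log2 fold change -2.03, SE 0.80, limma adjusted p = 0.0313). For eif2b2 the values were 37.4 and 10.9 TPM in tie1 Homo, against 88.7 and 64.9 TPM in tie1 WT/Het, without a call (limma adjusted p = 0.0563). None of the 5 subunit genes exceeded the limit in both tie1 Homo libraries, whereas all 5 did in both tie1 WT/Het libraries. Their log2 fold changes had a median of -1.85. The mutant libraries differed in which subunit genes exceeded the limit, eif2b2 in tie1 Homo replicate 1 and eif2b1 and eif2b3 in tie1 Homo replicate 2. A value under the limit does not show that a transcript was absent.

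The kinases that phosphorylate eIF2 alpha were at or near background. The heme-regulated kinase gene eif2ak1 had 7.53 and 13.2 TPM in tie1 Homo and 2.60 and 3.92 TPM in tie1 WT/Het, and the double-stranded RNA sensor gene eif2ak2 had 8.02 and 8.87 TPM in tie1 Homo and 3.28 and 4.53 TPM in tie1 WT/Het. Neither exceeded the limit of any library, although eif2ak1 passed the threshold for a higher value (limma adjusted p = 0.0305, log2 fold change 1.39, SE 0.54). The sign for eif2ak2 turned after median-of-ratios rescaling and after quantile normalization. The gene eif2ak3, the kinase of endoplasmic reticulum stress, exceeded a limit only in tie1 WT/Het replicate 1, at 5.48 TPM.

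eIF3 is the multi-subunit scaffold that holds the small ribosomal subunit and the messenger together. Of its 18 genes 3 fell and 1 was called higher, against 4.43% and 44.6% of all genes. Among genes with a mean of at least 50 TPM, 33.0% were called lower. The largest falls were in eif3ea and eif3i. The gene eif3ea had 49.6 and 16.5 TPM in tie1 Homo, against 235 and 221 TPM in tie1 WT/Het (log2 fold change -2.94, SE 0.92, limma adjusted p = 0.0150). The gene eif3i had 19.6 and 13.2 TPM in tie1 Homo, against 108 and 132 TPM in tie1 WT/Het (log2 fold change -2.81, SE 0.86, limma adjusted p = 0.0139). For both genes the siblings were close to each other and tie1 Homo replicate 2 was under its limit. The third, eif3k, had 32.7 and 16.8 TPM in tie1 Homo, against 138 and 68.6 TPM in tie1 WT/Het (log2 fold change -2.01, SE 0.87, limma adjusted p = 0.0451). It too was under the limit in tie1 Homo replicate 2.

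A further 7 eIF3 genes had groups that did not overlap and lay at least 1 log2 unit lower without passing the test. The gene eif3g, an RNA-binding subunit, had 67.6 and 59.8 TPM in tie1 Homo, against 239 and 150.2 TPM in tie1 WT/Het, and its groups stood apart without a call (log2 fold change -1.56, SE 0.94, limma adjusted p = 0.140). The gene eif3f had 104 and 32.5 TPM in tie1 Homo and 106 and 92.7 TPM in tie1 WT/Het. The gene eif3s10, the zebrafish symbol for the largest subunit eIF3a, had 25.4 and 15.6 TPM in tie1 Homo and 20.4 and 20.8 TPM in tie1 WT/Het (log2 fold change -0.05, SE 0.75, limma adjusted p = 0.960), and its sign turned after quantile normalization, after rescaling of the listed rows and without tie1 Homo replicate 2. The row EIF3J_(3_of_3) was higher in tie1 Homo replicate 1 at 50.2 TPM than in the other 3 libraries, with 19.6 TPM in tie1 Homo replicate 2 and 19.6 and 24.4 TPM in tie1 WT/Het (log2 fold change 0.51, SE 0.79, limma adjusted p = 0.583). Its sign turned after median-of-ratios rescaling and without tie1 Homo replicate 1. It shares its name with 2 other eIF3J genes, eif3ja and eif3jb, so its reads may be split among copies. With the 3 called genes, 10 of the 18 eIF3 genes had groups apart by at least 1 log2 unit in this direction, where 9.47% of all genes and 70.4% of genes with a mean of at least 50 TPM did so. The 1 eIF3 gene called higher, eif3bb, stayed under every limit.

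**Figure D3:**
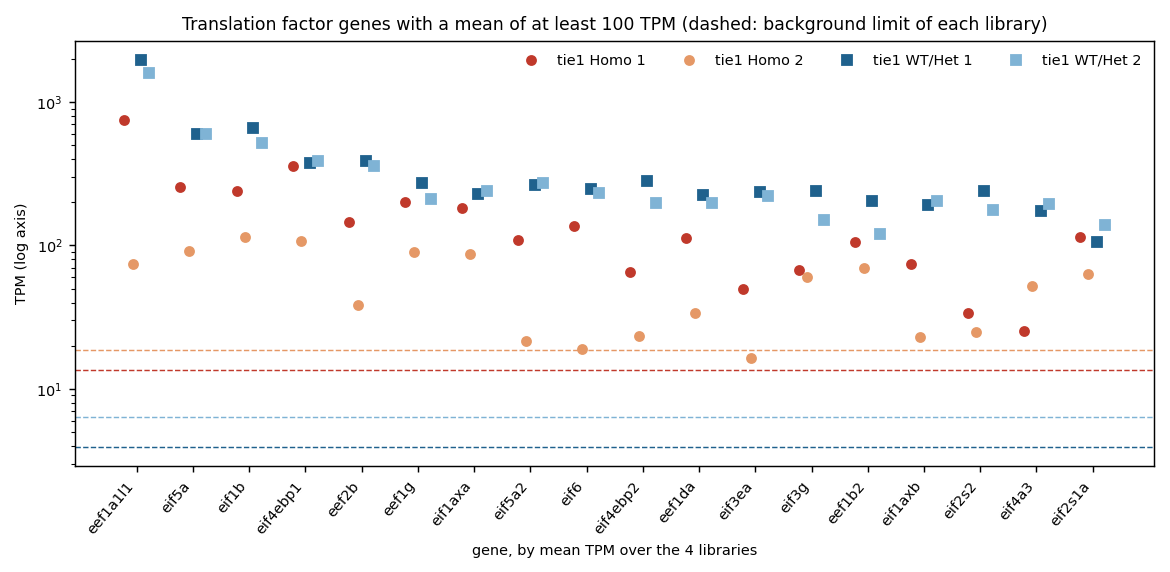
TPM (log axis) of the 18 translation factor genes with a mean of at least 100 TPM, with circles for the tie1 Homo libraries, squares for the tie1 WT/Het libraries and dashed lines for the background limit of each library. In 17 of the 18 genes both circles lie below both squares, and in 17 of the 18 tie1 Homo replicate 2 lies below tie1 Homo replicate 1. Among all 1788 genes with a mean of at least 50 TPM, 1358 had both tie1 Homo values below both tie1 WT/Het values. The median log2 difference of these 1788 genes from the tie1 WT/Het mean was -0.87 in tie1 Homo replicate 1. In tie1 Homo replicate 2 it was -2.34.

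The eIF4 factors recruit the capped messenger. Among the helicase genes, eif4a1a and eif4a3 fell. The gene eif4a1a, which encodes the RNA helicase that unwinds the leader, had 24.1 and 20.3 TPM in tie1 Homo, against 133 and 87.6 TPM in tie1 WT/Het (log2 fold change -2.24, SE 0.87, limma adjusted p = 0.0304). The gene eif4a3, whose product is a core of the exon junction complex rather than an initiation factor, had 25.3 and 52.1 TPM in tie1 Homo, against 174 and 193 TPM in tie1 WT/Het (log2 fold change -2.30, SE 0.92, limma adjusted p = 0.0333). It was the 1 gene with a mean of at least 100 TPM that was higher in tie1 Homo replicate 2 than in tie1 Homo replicate 1. The gene eif4a2 had 27.0 and 12.6 TPM in tie1 Homo and 2.27 and 22.8 TPM in tie1 WT/Het, with overlap (log2 fold change 1.14, SE 0.66, limma adjusted p = 0.126). The sign of eif4a2 turned after median-of-ratios rescaling and without tie1 WT/Het replicate 1. The helicase cofactor gene eif4bb fell, with 35.4 and 14.6 TPM in tie1 Homo against 115 and 94.4 TPM in tie1 WT/Het (log2 fold change -2.14, SE 0.87, limma adjusted p = 0.0355). The value of eif4bb in tie1 Homo replicate 2 was under the limit. Its paralog eif4ba had 11.2 and 12.9 TPM in tie1 Homo, both under the limit, and 17.1 and 15.5 TPM in tie1 WT/Het (limma adjusted p = 0.611), and its sign turned after rescaling of the listed rows.

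None of the 7 eIF4E genes, which encode the cap-binding proteins, was called lower, and 0 had an unadjusted p under 0.05 for a lower value. Over all genes tested 4.43% were called lower, against 33.0% of genes with a mean of at least 50 TPM. At the unadjusted p these shares were 6.02% and 44.6%. Of the eIF4E genes, only eif4e1c, eif4ea and eif4e2rs1 had a mean of at least 50 TPM. A negative log2 fold change was found for 6 of the 7 genes, for 20.3% of all genes and for 93.1% of genes with a mean of at least 50 TPM. The 1 eIF4E gene called higher, eif4e1b, stayed under every limit. The gene eif4e1c was higher in tie1 Homo replicate 1 than in any other library, with 115 and 12.0 TPM in tie1 Homo and 71.8 and 52.9 TPM in tie1 WT/Het. The gene was not called (log2 fold change -0.69, SE 0.87, limma adjusted p = 0.493), and its log2 fold change was 0.89 without tie1 Homo replicate 2. Without tie1 Homo replicate 1 the log2 fold change was -2.27 for eif4e1c and -2.28 for eif4e2rs1. The median over all genes with a mean of at least 50 TPM was then -2.34. The gene eif4e2rs1 had 76.2 and 23.5 TPM in tie1 Homo, against 88.9 and 154.9 TPM in tie1 WT/Het (log2 fold change -1.45, SE 0.91, limma adjusted p = 0.158). Of the scaffold genes, eif4g2b fell, with 16.2 and 18.2 TPM in tie1 Homo against 75.8 and 62.5 TPM in tie1 WT/Het (log2 fold change -1.94, SE 0.83, limma adjusted p = 0.0424). Its value in tie1 Homo replicate 2 was just under the limit. In mammals the proteins of this branch lack the arm that binds the cap-binding protein eIF4E. Its paralog eif4g2a had 11.6 and 17.3 TPM in tie1 Homo, both under the limit, and 26.9 and 11.9 TPM in tie1 WT/Het, and was not called (limma adjusted p = 0.700). Its sign turned after rescaling of the listed rows and without tie1 WT/Het replicate 1.

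The 4E-binding proteins hold eIF4E away from the scaffold until growth signals phosphorylate them. Of their 4 genes, eif4ebp2 and eif4ebp3l were called lower, and differences among the 4 genes were not tested. The gene eif4ebp2 fell, with 65.4 and 23.4 TPM in tie1 Homo against 283 and 199 TPM in tie1 WT/Het (log2 fold change -2.57, SE 0.93, limma adjusted p = 0.0240). The gene eif4ebp3l fell as well, with 36.96 and 13.4 TPM in tie1 Homo against 191 and 119 TPM in tie1 WT/Het (log2 fold change -2.70, SE 0.89, limma adjusted p = 0.0182), and its second mutant value was under the limit. The gene eif4ebp1 had 359 and 107 TPM in tie1 Homo, against 375 and 388 TPM in tie1 WT/Het (log2 fold change -0.96, SE 0.95, limma adjusted p = 0.381), and the sign turned after quantile normalization. In tie1 Homo replicate 1 eif4ebp1 was thus close to the sibling level, whereas eif4ebp2 and eif4ebp3l were not. Of the summed TPM of the 4 genes, eif4ebp1 supplied 69.2% and 69.8% in tie1 Homo, against 43.1% and 52.5% in tie1 WT/Het. After background subtraction these shares were 72.3% and 86.7% in tie1 Homo, against 43.2% and 53.1% in tie1 WT/Het. The shares were chosen with earlier results of these data known, and no background was computed for them. Log2 ratios without overlap between groups were found for 49.0% of 2514 gene pairs with symbols differing only in a final a or b. The fourth gene, eif4ebp3, had 57.3 and 9.44 TPM in tie1 Homo and 21.5 and 32.5 TPM in tie1 WT/Het.

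**Figure D4:**
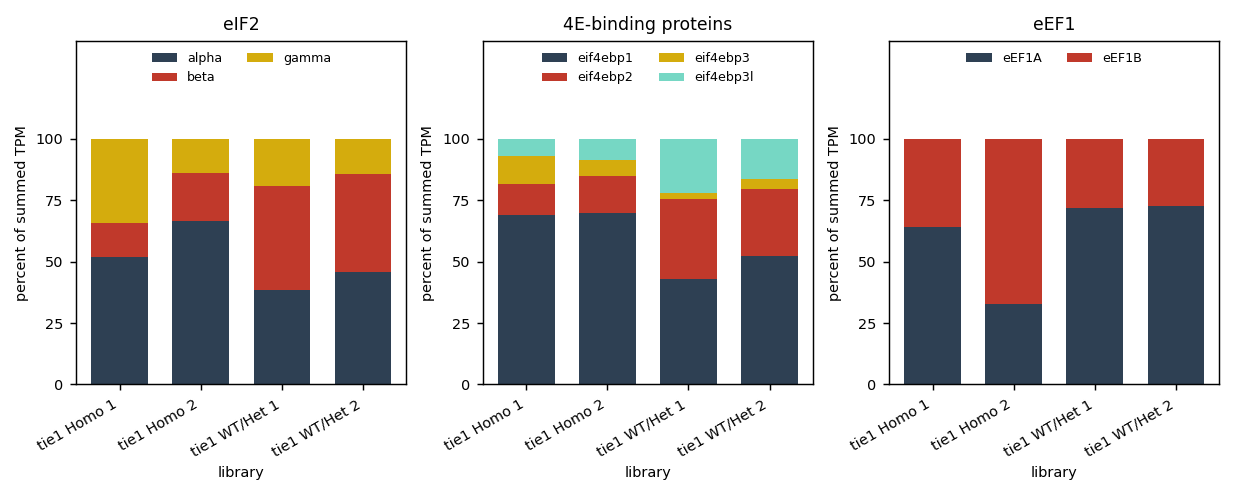
Percent of summed TPM supplied by the alpha, beta and gamma subunit genes of eIF2, by the 4 genes of 4E-binding proteins, and by eEF1A against eEF1B genes, in each library. The beta segment of eIF2 is 13.9% and 19.9% in tie1 Homo, against 42.4% and 39.95% in tie1 WT/Het, the eif4ebp1 segment is larger in both tie1 Homo bars, and eEF1A is smallest in tie1 Homo replicate 2 at 32.9%. Within-library ratios did not overlap between groups for 49.0% of 2514 gene pairs with symbols differing only in a final a or b.

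Elongation was led by 1 gene. eEF1A carries aminoacyl-tRNA to the ribosome, and its gene eef1a1l1 was the most abundant translation factor gene in tie1 Homo replicate 1 and in both siblings. It had 755 and 74.2 TPM in tie1 Homo, against 1966 and 1605 TPM in tie1 WT/Het (log2 fold change -2.90, SE 0.92, limma adjusted p = 0.0158). As a ratio, the mutant libraries differed from each other more than tie1 Homo replicate 1 differed from the siblings. The gene supplied 15.6% and 3.74% of all translation factor TPM in tie1 Homo, against 19.4% and 18.6% in tie1 WT/Het. The other eEF1A genes eef1a1a, eef1a1b and eef1a2 did not exceed 10.8 TPM in any library and were under every limit. Of these, eef1a1a and eef1a1b passed the threshold for a higher value, at limma adjusted p-values of 0.0343 and 0.0334. These genes are closely related copies, so the split of reads among them is uncertain.

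The eEF1B complex reloads eEF1A with GTP, and 1 of the 6 genes placed with it by symbol fell. The 6 genes include eef1e1 and EEF1D_(2_of_3), which the ratio below leaves out. Of all genes 4.43% were called lower, and of genes with a mean of at least 50 TPM 33.0%. The called gene, eef1db, had a mean of 41.4 TPM over all libraries. The gene eef1db had 10.3 and 13.6 TPM in tie1 Homo, both under the limit, against 63.96 and 77.8 TPM in tie1 WT/Het (log2 fold change -2.47, SE 0.81, limma adjusted p = 0.0174). Its paralog eef1da had 112 and 33.7 TPM in tie1 Homo, against 226 and 197 TPM in tie1 WT/Het, without a call (log2 fold change -1.76, SE 0.94, limma adjusted p = 0.0974). The structural subunit gene eef1g had 201 and 89.8 TPM in tie1 Homo, against 273 and 211 TPM in tie1 WT/Het (log2 fold change -0.83, SE 0.95, limma adjusted p = 0.450), and its sign turned after quantile normalization. Within a library, the summed TPM of the 4 eEF1A genes over that of eef1b2, eef1da, eef1db and eef1g was 1.80 and 0.490 in tie1 Homo, against 2.57 and 2.67 in tie1 WT/Het. After background subtraction the ratio was 1.89 and 0.388 in tie1 Homo, against 2.58 and 2.71 in tie1 WT/Het. The ratio was chosen with earlier results of these data known, and no background was computed for it. Log2 ratios without overlap between groups were found for 49.0% of 2514 gene pairs with symbols differing only in a final a or b.

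The translocase gene eef2b fell, with 145 and 38.5 TPM in tie1 Homo against 391 and 360.2 TPM in tie1 WT/Het (log2 fold change -2.31, SE 0.95, limma adjusted p = 0.0374). The related gene eef2a.1 stayed at 8.22 and 12.2 TPM in tie1 Homo, under the limit, and at 8.73 and 12.6 TPM in tie1 WT/Het. eIF5A, which eases the ribosome through stalled stretches and carries the modified residue hypusine, is encoded by eif5a and eif5a2. The gene eif5a2 fell, with 110.1 and 21.6 TPM in tie1 Homo against 266 and 273 TPM in tie1 WT/Het (log2 fold change -2.43, SE 0.94, limma adjusted p = 0.0297). The more abundant eif5a had 257 and 91.6 TPM in tie1 Homo, against 595 and 604 TPM in tie1 WT/Het, and did not pass (log2 fold change -1.96, SE 0.95, limma adjusted p = 0.0703). The kinase of eEF2, eef2k, had 6.96 and 13.3 TPM in tie1 Homo and 7.66 and 8.66 TPM in tie1 WT/Het, with overlap. The sign for eef2k turned after median-of-ratios rescaling, quantile normalization and background subtraction. The methyltransferase gene eef2kmt was called higher (limma adjusted p = 0.0115) but had at most 13.6 TPM and was under every limit.

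Paralog pairs were then compared within each library as log2 ratios of TPM + 1, which a common factor on a library hardly moves. Of 12 pairs whose symbols differ only in a final a or b, 7 had log2 ratios that did not overlap between tie1 Homo and tie1 WT/Het, against 49.0% of all 2514 such pairs in the data set. Where both genes exceeded the limit in both tie1 WT/Het libraries it was 5 of 9 pairs, against 48.9% of 397 pairs, so the translation factor pairs were close to the background. In 1 of the 12 pairs, eif1axa and eif1axb, both genes were above the limit in all 4 libraries. Its log2 ratio of eif1axa over eif1axb was 1.30 and 1.87 in tie1 Homo, against 0.26 and 0.23 in tie1 WT/Het. For eif2s1a over eif2s1b the log2 ratio after background subtraction was 4.64 and 2.59 in tie1 Homo, against -0.11 and 1.23 in tie1 WT/Het. For eif3ja over eif3jb the log2 ratio after background subtraction was 3.495 and 1.97 in tie1 Homo, against 0.19 and -0.17 in tie1 WT/Het. Both genes of this last pair were under the limit in tie1 Homo replicate 2. In all, 6 of the 7 pairs held a gene that was under the limit in at least 1 library. Background subtraction made some pairs overlap: eif3ea over eif3eb had 5.40 and 2.68 in tie1 Homo, against 5.37 and 6.26 in tie1 WT/Het. For eif4ba over eif4bb it was -2.87 and -0.67 in tie1 Homo, against -2.84 and -2.83 in tie1 WT/Het. In contrast, eef1da over eef1db lost its overlap, with 5.16 and 2.72 in tie1 Homo against 1.84 and 1.37 in tie1 WT/Het.

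The translation factor sum was then set against the sums of 2 other groups of housekeeping genes, as deposited and after background subtraction. Relative to the sum of 76 cytosolic ribosomal protein genes it was 0.215 and 0.228 in tie1 Homo, against 0.196 and 0.226 in tie1 WT/Het. Relative to the sum of 44 proteasome subunit genes it was 0.905 and 1.04 in tie1 Homo, against 0.969 and 0.950 in tie1 WT/Het. As deposited, the groups overlapped in both ratios. After background subtraction the ratio to ribosomal protein genes was 0.191 and 0.142 in tie1 Homo, against 0.193 and 0.220 in tie1 WT/Het. The ratio to proteasome genes was then 0.837 and 0.773 in tie1 Homo, against 0.960 and 0.933 in tie1 WT/Het. With subtraction the groups no longer overlapped in either ratio, and the tie1 Homo libraries were the lower ones. For ribosomal protein genes the gap was narrow, with 0.191 in tie1 Homo replicate 1 and 0.193 in tie1 WT/Het replicate 1. In tie1 Homo replicate 2 the presumed background was 919 of the 1986 TPM in the translation factor sum. The differences were not tested, and an exact permutation test cannot go below p = 0.33 here. The median log2 fold change was -1.59 for the ribosomal protein genes and -1.63 for the proteasome genes tested.

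**Figure D5:**
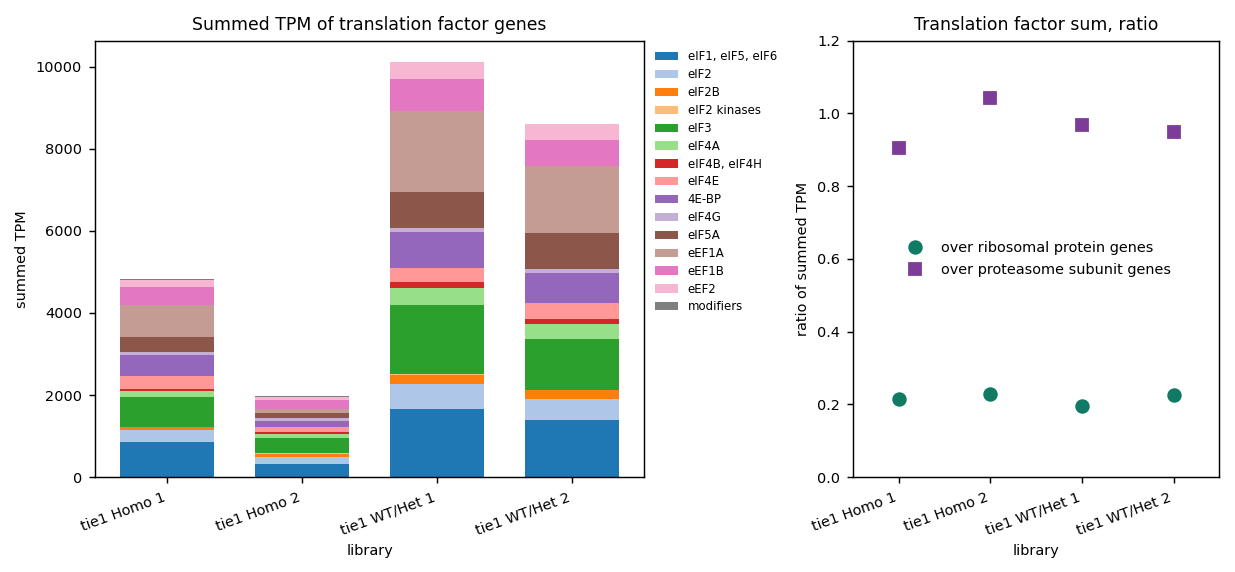
Left, summed TPM of the translation factor genes in each library, stacked by role. Right, the same sum divided by the summed TPM of 76 ribosomal protein genes (circles) or of 44 proteasome subunit genes (squares). The bars reach 4823 and 1986 TPM in tie1 Homo, against 10122 and 8610 TPM in tie1 WT/Het, while the circles stay between 0.196 and 0.228.

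The order of levels was compared among the 81 tested genes, of which 11 exceeded the limit in no library. Spearman's rho across these genes was 0.678 between the 2 tie1 Homo libraries and 0.950 between the 2 tie1 WT/Het libraries, a description across genes that share a library. The tie1 Homo libraries had a rho of between 0.696 and 0.822 with the siblings.

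Other genes of the pathway were taken from lists. Of 70 genes in 6 lists, 69 were tested, 7 were called lower and 8 higher, against 4.43% and 44.6% of all genes, with a median log2 fold change of -0.13 over the lists. Among genes with a mean of at least 50 TPM, 33.0% were called lower and 0.168% higher. Of the 8 called higher, 7 exceeded the limit in no library. The numbers of calls in the lists changed with the library left out, as they did over all genes. In the termination and recycling list 3 of 8 tested genes fell: etf1b (log2 fold change -1.95), gspt1l (-2.13) and mcts1 (-2.24). In the same list gspt1 was called higher (log2 fold change 1.43) at 9.17 and 9.56 TPM in tie1 Homo and 2.61 and 3.10 TPM in tie1 WT/Het, under every limit. The poly(A)-binding gene pabpc1a, whose product bridges the tail to eIF4G, fell with 84.5 and 37.1 TPM in tie1 Homo against 325 and 265 TPM in tie1 WT/Het (log2 fold change -2.37, SE 0.94, limma adjusted p = 0.0332). The mitochondrial elongation factor gene tufm fell most, with 5.33 and 11.5 TPM in tie1 Homo, both under the limit, against 143 and 81.9 TPM in tie1 WT/Het (log2 fold change -3.62, SE 0.81, limma adjusted p = 0.00102). Of 17 tRNA synthetase and cofactor genes, farsa and qars fell and eprs was called higher, the last at most at 16.0 TPM. Of 18 poly(A)-binding and cap-linked regulators 1 fell and 4 were called higher, of 9 mitochondrial translation factors 1 fell and 1 was called higher, and of 8 hypusine and diphthamide enzymes 0 fell and 1 was called higher. In the list of genes tied to eIF2 phosphorylation 0 of 9 passed in limma, and 3 had an unadjusted p under 0.05 for a lower and 1 for a higher value. At that p, 6.02% of all genes were lower and 53.8% higher. Of genes with a mean of at least 50 TPM, 44.6% were lower and 0.783% higher at that p. The stress gene atf4b had 161 and 41.9 TPM in tie1 Homo, against 469 and 267 TPM in tie1 WT/Het (limma adjusted p = 0.0550), and chac1 had 128 and 107 TPM in tie1 Homo, against 724 and 324 TPM in tie1 WT/Het (limma adjusted p = 0.0611). In the other direction, ppp1r15b had 7.95 and 13.2 TPM in tie1 Homo and 2.40 and 5.75 TPM in tie1 WT/Het, under every limit (limma adjusted p = 0.0505). The gene asns had 9.89 and 18.3 TPM in tie1 Homo and 7.96 and 3.61 TPM in tie1 WT/Het (limma adjusted p = 0.0860).

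Markers of other cell types were summed in each library with no background subtracted. The median of the genes presumed silent was 8.39 and 11.1 TPM in tie1 Homo, against 2.27 and 3.66 TPM in tie1 WT/Het. Each marker can add that much to a sum, so sums of low markers are raised more in tie1 Homo. The 9 erythroid markers summed to 3179 and 952 TPM in tie1 Homo, against 7311 and 6559 TPM in tie1 WT/Het, and 5 and 7 of them were above the limit in tie1 Homo, against 7 in each tie1 WT/Het library. The 10 myeloid markers summed to 845 and 360.1 TPM in tie1 Homo and 720 and 653 TPM in tie1 WT/Het. The marker mfap4 alone supplied 680 and 233 TPM in tie1 Homo, against 180 and 137 TPM in tie1 WT/Het. In the other direction, lyz had 35.9 and 21.8 TPM in tie1 Homo, against 344 and 319 TPM in tie1 WT/Het. Of the 10 myeloid markers 3 were called lower and 1 higher, against 4.43% and 44.6% of all genes. The 14 skeletal muscle markers summed to 283 and 443 TPM in tie1 Homo, against 506 and 1326 TPM in tie1 WT/Het. The 10 neural markers were under the limit in both mutant libraries, with 4 and 3 of them above it in tie1 WT/Het. Epidermal markers summed to 759 and 290.04 TPM in tie1 Homo, against 1412 and 864 TPM in tie1 WT/Het, and mural and fibroblast markers to 154 and 135 TPM in tie1 Homo, against 199 and 177 TPM in tie1 WT/Het. No marker of these lists was at 0 in all 4 libraries, and the part of other cells in the translation factor values was not tested.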

How the data were processed

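Per the labels' protocols, double-positive cells were sorted from dissociated trunks and tails, amplified cDNA came from a SMART-Seq v4 kit, and a directional NEBNext kit was used for sequencing libraries. For every library the authors deposited a table of TPM values. The submitters' processing notes name Trim Galore 0.6.6, cutadapt 2.8, HISAT2 2.2.1, SAMtools 1.7, StringTie 2.1.4 and the build GRCz11, with no role or order. The annotation and the strand setting of the counting are not given in the sources used here. TPM keeps no read depth, so depth is unknown and no counting interval is given. In all, 510 rows were at 0 in every library, and such a 0 can be a failed estimate.

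Genes with a mean of at least 1 TPM were transformed to log2(TPM + 1) and compared by group with limma 3.58.1 (R 4.3.3), with no other covariate. Variances were moderated with an intensity trend, p-values were two-sided and adjusted by the Benjamini-Hochberg method. In the main fit the prior degrees of freedom were infinite, so an SE reflects the trend at that level and not the spread of a gene's own replicates. With 2 libraries a group a small p-value is then stronger than the replicates warrant. Fold changes understate changes of low genes. A fit of this kind was run on simulated data that had the spread of the sibling libraries, not that of the mutant ones. Alternatives changed the pseudocount, the filter, the scaling of libraries, the background and the variance model, left out each library, or added a replicate block. The permutation test used scipy 1.17.1.

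Members, lists, background genes and tests were chosen with earlier results of these data known. Genes were named by rule: the 2 most abundant of each of 15 roles, and the 5 lowest and 5 highest log2 fold changes among those with a mean of at least 10 TPM, 36 genes in all, besides tie1. The 7 other genes called lower, and genes given by their TPM, were named after their values were seen. Of the 83 symbols, 78 matched RefSeq names (assembly GRCz12tu), and 30 of these overlap another gene there, so their reads may be shared. Ribosomal protein and proteasome genes were taken by symbol.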

Additional observations from a re-analysis of the deposited data

How the results depend on the processing

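Numbers of calls differed most between scalings, where the p-value for a given fold change and SE differed too, and between left-out libraries. Translation factor genes called lower numbered 20, and 0 after median-of-ratios rescaling, quantile normalization or background subtraction, 11 after rescaling of the listed rows, 31 without an intensity trend, 6 with a replicate block and 0 to 33 with 1 library left out. Those called higher numbered 8, and 0, 0 and 0 under the first 3 of these, 4 without the trend and 0 to 9 with 1 library left out. Over all genes, 12618 higher calls became 0, 0 and 0, 8103 without the trend and 521 to 14006 with 1 library left out. The 1255 lower calls became 0, 0 and 0, 718 after rescaling of the listed rows, 1986 without the trend, 666 with the block and 66 to 1762 with 1 library left out. In the pathway lists, 8 higher calls became 0, 0 and 0, 2 without the trend and 0 to 11 with 1 library left out, and 7 lower calls became 0, 0 and 0, 2 after rescaling, 15 without the trend, 2 with the block and 1 to 12 with 1 library left out. Deviations of same-numbered libraries correlated at r = 0.130 over 28301 genes, which with 2 pairs cannot settle whether replicate numbers pair the samples. Translation factor genes that did not overlap and were at least 1 log2 unit lower numbered 36, and 59 under median-of-ratios, 23 under quantile normalization and 30 to 49 with 1 library left out. Those at least 1 log2 unit higher numbered 10, and 0 under median-of-ratios, 3 when the pseudocount was 5, 4 under quantile normalization, 16 after rescaling of the listed rows, 1 after background subtraction and 8 to 14 with 1 library left out. Their median log2 fold change of -1.01 was -2.30, -0.53, -0.52 and -2.09 under median-of-ratios, quantile normalization, rescaling and background subtraction, and -1.47 to -0.59 with 1 library left out. The log2 ratio of summed TPM, -1.46, was -2.81 and -0.46 under the first 2, and -2.24 to -0.96 with 1 library left out. For tie1 the log2 fold change of -1.66 passed without the trend (limma adjusted p = 0.0353). No cause was tested.

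Signs turned for 14 named genes, none of them called in either direction. After median-of-ratios rescaling the log2 fold change was -1.03 for eef2k, -0.22 for eif2ak2, -1.24 for eif2a, -0.82 for EIF3J_(3_of_3) and -0.061 for eif4a2. After quantile normalization it was -0.49 for eef2k, -0.29 for eif2ak2, 0.50 for eif4ebp1, 0.52 for eif1axa, 0.60 for eef1g, 0.84 for eif2s1a and 0.21 for eif3s10. After rescaling of the listed rows it was 0.18 for eif4g2a, 0.082 for eif4ba, 0.015 for eif2s1a, 0.43 for eef2a.1 and 0.46 for eif3s10. After background subtraction it was -1.78 for eef2k and -0.73 for eif2a. With 1 library left out it ran between -0.88 and 0.23 for eif4g2a, -0.20 and 0.65 for eef2k, -2.27 and 0.89 for eif4e1c, -0.32 and 0.20 for eef2a.1, and -0.38 and 0.29 for eif3s10. It ran between -0.78 and 0.92 for eif2a, -0.15 and 1.16 for EIF3J_(3_of_3), and -0.29 and 2.58 for eif4a2. A fit without 1 library assumes that the lone library of its group varies like the other group.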
